A study of Homo sapiens with 6 samples.

Results

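The peaks described here are those that V5-GSE1 chromatin immunoprecipitation sequencing (ChIP-seq) placed on unlocalized and unplaced sequences of the human assembly and in 4 windows of 1 Mb near the centromeres of chromosomes 10 and 21. They numbered 539 of 21401 peaks (2.52%) in DMSO-treated cells and 563 of 13233 peaks (4.25%) in cells treated with MC2580. A peak was a member when it lay on a sequence other than chromosomes 1 to 22, X, Y and the mitochondrial genome, or when its start fell at 37 to 38, 41 to 42 or 46 to 47 Mb of chromosome 10, or at 10 to 11 Mb of chromosome 21. The windows had been selected on their number of peaks in these same lists, so that peak density is a criterion of selection and not a result. All coordinates are hg38, counted from 1.

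The cells were NB4, a human acute promyelocytic leukaemia line, transduced with pLEX_307 carrying the V5-tagged coding sequence of GSE1 transcript variant 2, and they were treated for 24 h with 2 µM MC2580, which inhibits the histone demethylase LSD1, or with DMSO. A V5 ChIP from NB4 cells with the empty vector (EV) and the respective input served as backgrounds for peak calling, and the 3 ChIPs each had an input library. The exogenous protein was expressed from the lentiviral construct on top of the endogenous GSE1, and each of the 6 groups was 1 library. The lists thus stand for 2 libraries without replicate error, their read depth was unknown, no test between treatments was made, and both lists shared the EV library.

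GSE1 is a chromatin-associated protein that copurifies with LSD1 and its CoREST partners. Human pericentromeric DNA is built of tandem satellites, chiefly alpha satellite, a repeat of monomers long enough to wrap a nucleosome, and satellites II and III, which derive from a 5-base unit, and it is bordered by segmental duplications that share long stretches with other chromosomes. Sequence that could not be anchored in the assembly is of the same kind and includes ribosomal DNA, in which the 45S rRNA gene alternates with an intergenic spacer. Per the study's methods only reads with a single match to the genome were kept, so that within such DNA a peak can be called only where its copies differ.

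Stretches of the strongest peaks are shown first, because they differ in kind. All are printed 5′ to 3′ on the plus strand of the reference. The wider of the 41-Mb window's peaks with the highest score, in both lists, was made up largely of a 5-base satellite. In the following stretch at its centre (chr10:41883479-41883628), capitals mark GGAAT, which made up 85 of 150 bases.
Chromosome 10 satellite: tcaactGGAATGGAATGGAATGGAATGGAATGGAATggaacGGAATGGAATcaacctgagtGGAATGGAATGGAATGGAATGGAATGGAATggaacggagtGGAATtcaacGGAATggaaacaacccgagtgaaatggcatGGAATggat

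The highest-scoring DMSO peak of the chromosome 21 window with the period of an alpha-satellite monomer gave the following consecutive units (chr21:10811303-10811473 and chr21:10811474-10811644), in which capitals mark the 96 positions at which the units have the same base.
Unit 1: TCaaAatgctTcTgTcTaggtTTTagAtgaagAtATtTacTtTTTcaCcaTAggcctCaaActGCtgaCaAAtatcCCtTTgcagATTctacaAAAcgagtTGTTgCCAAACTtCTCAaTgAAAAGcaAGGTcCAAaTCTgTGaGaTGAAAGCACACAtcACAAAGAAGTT
Unit 2: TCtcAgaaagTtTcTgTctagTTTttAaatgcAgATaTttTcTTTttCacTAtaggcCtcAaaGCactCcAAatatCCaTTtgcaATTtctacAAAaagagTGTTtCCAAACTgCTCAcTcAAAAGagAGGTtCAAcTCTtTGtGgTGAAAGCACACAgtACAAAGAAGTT

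In the remaining stretches, each the central 200 bases of a DMSO peak, capitals mark bases covered by a 32-base word that occurs once in the reference (alternate sequences excluded, both strands counted). The ribosomal spacer stretch (chr22_KI270733v1_random:146740-146939) had 168 such bases, the alpha-satellite stretch of an unplaced sequence (chrUn_KI270538v1:88376-88575) had 49 and the stretch from the 37-Mb window (chr10:37472100-37472299) had all 200. Of the 32-base words of the whole peaks, in the same order, 21.67%, 10.25% and 76.25% occurred once. The stretches thus do not stand for their whole peaks.
Ribosomal spacer: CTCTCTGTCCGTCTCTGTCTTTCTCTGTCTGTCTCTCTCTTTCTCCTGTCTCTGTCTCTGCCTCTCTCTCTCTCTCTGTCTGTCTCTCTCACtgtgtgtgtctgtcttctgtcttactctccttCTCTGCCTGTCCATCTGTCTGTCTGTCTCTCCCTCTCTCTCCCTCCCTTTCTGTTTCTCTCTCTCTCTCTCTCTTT
Unplaced alpha satellite: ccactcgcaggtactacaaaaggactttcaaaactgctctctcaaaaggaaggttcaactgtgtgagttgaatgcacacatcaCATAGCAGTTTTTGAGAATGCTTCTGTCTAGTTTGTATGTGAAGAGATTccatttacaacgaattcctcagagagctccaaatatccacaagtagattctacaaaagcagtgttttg
Chromosome 10, 37-Mb window: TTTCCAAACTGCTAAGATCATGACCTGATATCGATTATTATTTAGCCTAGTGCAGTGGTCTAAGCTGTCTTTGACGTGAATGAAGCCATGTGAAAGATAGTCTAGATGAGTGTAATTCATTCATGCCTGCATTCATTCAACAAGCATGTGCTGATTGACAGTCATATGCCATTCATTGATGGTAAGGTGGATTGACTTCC

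The first comparison was how the 2 lists filled these places. Unlocalized and unplaced sequences held 256 DMSO and 262 MC2580 peaks, the 37-Mb window 131 and 130, the 41-Mb window 34 and 43, the 46-Mb window 38 and 35, and the chromosome 21 window 80 and 93. There were 1.04 MC2580 peaks per DMSO peak over all members, with the lowest ratio, 0.921, in the 46-Mb window and the highest, 1.26, in the 41-Mb window. Over all other peaks the ratio was 0.607. The length covered by member peaks was 1.37 Mb in DMSO and 1.32 Mb in MC2580, a ratio of 0.959, against 0.595 for the other peaks. The number and total length of all members together thus differed little between the lists. The rest of the peaks were fewer after MC2580. By place, the ratio of covered length ran from 0.779 in the 46-Mb window to 1.085 in the 41-Mb window. On unlocalized and unplaced sequences it was 0.946. The windows had been selected on peak number in these lists, so that their contrast with the other peaks is a description only.

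Peaks of one list usually lay on peaks of the other. Of the DMSO members, 439 overlapped an MC2580 peak by at least 1 bp, or 81.4% (Wilson 95% interval 78.0 to 84.5), against 33.6% of all DMSO peaks and 32.4% (31.8 to 33.0) of the non-members. Of the MC2580 members, 468 overlapped a DMSO peak, or 83.1% (79.8 to 86.0), against 58.0% of all MC2580 peaks and 56.9% (56.1 to 57.8) of the non-members. These intervals cover counting error only, since neighbouring peaks are not replicates. The share differed between places. In the 37-Mb window 86.3% of DMSO peaks and 86.2% of MC2580 peaks had a counterpart. Peaks covered 55.0% and 54.4% of that window, and since the windows were selected on peak density in these lists, overlap by 1 bp is in large part given by the selection there, so that the gap to the non-members is a description only. In the 46-Mb window 63.2% (47.3 to 76.6) of the DMSO peaks had one and 82.9% (67.3 to 91.9) of the MC2580 peaks. In the 41-Mb window the order was the opposite, with 76.5% (60.0 to 87.6) of DMSO and 58.1% (43.3 to 71.6) of MC2580 peaks, and these intervals overlapped.

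**Figure D1:**
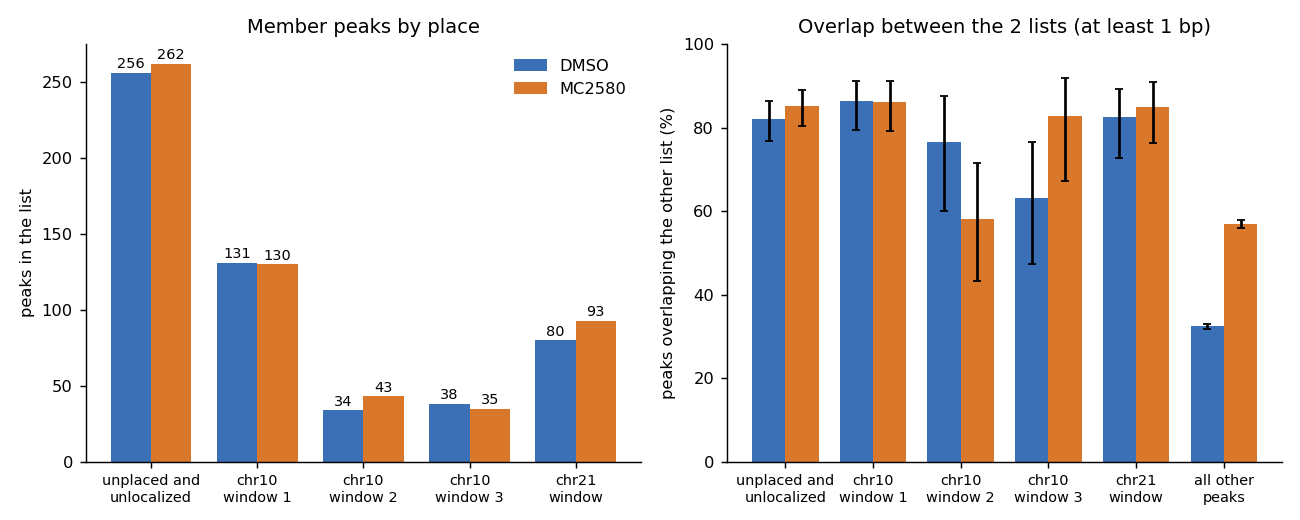
Left, number of member peaks in each list by place; right, percent of peaks in each list that overlap the other list by at least 1 bp, with Wilson 95% intervals. Windows 1 to 3 of chromosome 10 are those at 37, 41 and 46 Mb; bars of the 2 lists are of nearly equal height on the left (256 and 262 on unplaced and unlocalized sequences), and on the right member places lie above all other peaks (32.4% and 56.9%), least so in MC2580 at window 2 (58.1%).

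Peaks without a counterpart were mostly weak. The score, minus 10 times the log10 of the p-value that the peak caller gave, was at least 50 by the calling threshold. The 100 DMSO members without a counterpart had a median score of 77.5 and 25 of them reached 100, whereas the median over all 539 was 149 (95% interval from order statistics 135.8 to 170.7). The 95 MC2580 members without one had a median of 70.7 and 13 of them reached 100, against a median of 128 (118 to 146) over all 563. The strongest DMSO member without a counterpart scored 404 and lay in the 37-Mb window (chr10:37394906-37398363), 46290 bp from the nearest annotated start site. The strongest in MC2580 scored 356, on chrUn_GL000219v1 at 175812-177990. The sequences with a peak in 1 list only were 7 in DMSO with 8 peaks and 4 in MC2580 with 4 peaks, and none of those peaks scored above 139.

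Member scores were above those of the remaining peaks in both lists. The non-members had median scores of 90.3 (89.3 to 91.2) in DMSO and 76.9 (76.1 to 77.8) in MC2580. Many of the strongest peaks of both lists coincide at a score of exactly 3100. It was the score of 23 DMSO members (4.27%) and 19 MC2580 members (3.38%), against 93 (0.446%) and 67 (0.529%) of the non-members. The 37-Mb window held 15 of the 23 and 12 of the 19. No member scored higher, whereas the highest non-member scores were 3184.82 in DMSO and 3207.81 in MC2580. Median widths were 1258 bp (1193 to 1349) and 1165 bp (1118 to 1250) for DMSO and MC2580 members, against 996 bp and 922 bp for the non-members. Members ranged from 547 to 52726 bp in DMSO and from 494 to 65737 bp in MC2580. Non-members ranged from 301 to 127639 bp and from 334 to 63092 bp, so that great width was not particular to members.

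For peaks that overlapped one to one, scores could be set side by side. Of the 439 DMSO members with a counterpart, 275 formed such pairs, and in the 37-Mb window 58 of 113. The rest overlapped several peaks or shared their counterpart, and were left out. The MC2580 score was lower in 62.2% (56.3 to 67.7) of the 275 member pairs, against 76.7% of all pairs and 77.4% of the 5174 non-member pairs. Intervals here cover counting error only, since neighbouring peaks are not replicates. The median ratio of the MC2580 to the DMSO score was 0.884 (0.842 to 0.940) in members and 0.621 (0.607 to 0.635) elsewhere. It was 0.932 in the 37-Mb window (58 pairs), 0.900 on unlocalized and unplaced sequences (152 pairs), 0.867 in the 41-Mb window (19 pairs), 0.802 in the chromosome 21 window (31 pairs) and 0.670 (0.492 to 0.909) in the 46-Mb window (15 pairs). Both scores were 3100 in 12 member pairs, where the ratio is 1 whatever the enrichment. Single pairs ranged from 0.276 to 3.69, with 20 of the 275 below 0.5 and 6 above 2. The lowest ratio was that of a peak on chr17_KI270729v1_random starting at 24480, with a score of 184 in DMSO and 50.8 in MC2580. The highest lay within ANKRD30A in the 37-Mb window, starting at 37134494 in DMSO, with a score of 83.2 there and 307 in MC2580. The lowest and highest pair were chosen after their values were seen.

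**Figure D2:**
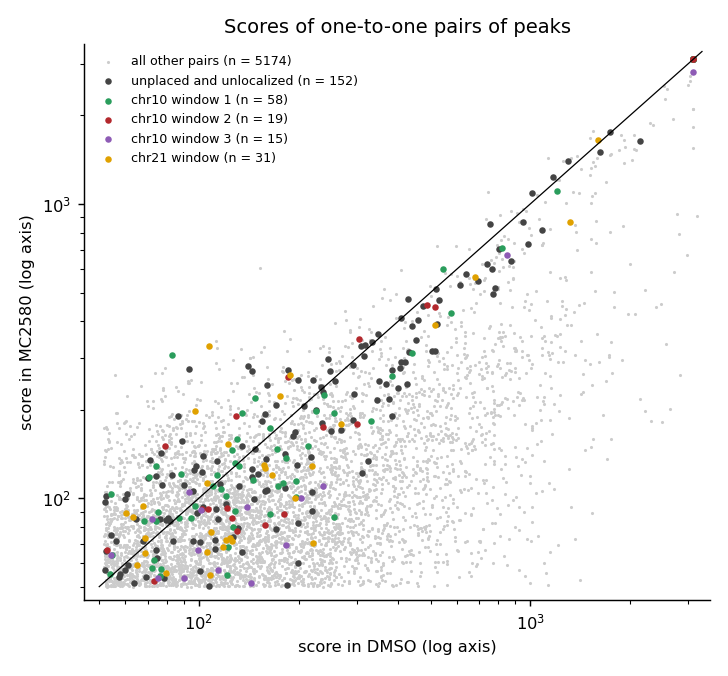
Score in MC2580 against score in DMSO, both on log axes, for peaks that overlap one to one; coloured points are member pairs by place, grey points are the 5174 non-member pairs, and the line marks equal scores. Both groups lie on both sides of the line, with 62.2% of member pairs (median ratio 0.884) and 77.4% of grey points (median ratio 0.621) below it.

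The 37-Mb window held the longest occupied stretch. From chr10:37445532 to 37813340, a distance of 368 kb, 24 DMSO peaks covered 96.4% of the sequence and 20 MC2580 peaks covered 96.3%, and every peak of this window with a score of 3100 lay within it, the bounds having been set by those peaks. The widest DMSO member (chr10:37445837-37498562) spanned 52726 bp. The widest MC2580 member (chr10:37631542-37697278) spanned 65737 bp and overlapped 4 DMSO peaks. Within 100 kb bins of the window, the share covered rose from 59.7% and 59.6% at 37.2 Mb to 96.3% and 95.3% at 37.6 Mb in DMSO and MC2580, and it was 13.3% and 13.1% in the bin at 37.8 Mb. The stretch carries 6 annotated genes, of which 1 codes for protein, ZNF248, a KRAB zinc finger gene. Peaks covered 42.5% of ZNF248 in DMSO and 42.3% in MC2580. The widest peaks lay between genes: 24449 bp separated the widest DMSO peak from the nearest annotated start site, and 30174 bp separated the widest MC2580 peak from its nearest one.

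Other genes of this window had weaker and more broken peaks. ANKRD30A, which encodes an ankyrin repeat protein known as a breast differentiation antigen, was touched by 20 DMSO peaks with a highest score of 330 and by 26 MC2580 peaks with a highest score of 307. LINC00993, annotated as a transcribed pseudogene, was covered over 81.5% of its length in DMSO and 80.5% in MC2580. ZNF25, another zinc finger gene, carried 4 peaks in each list, with highest scores of 265 and 178. The lncRNA transcribed from its other side, ZNF25-DT, carried 6 DMSO peaks and 2 MC2580 peaks. Of the 131 DMSO peaks, 29 (22.1%) lay within 3 kb of an annotated start site, 11 over an exon, 35 within an intron and 56 between genes, and of the 130 MC2580 peaks the numbers were 31, 9, 40 and 50.

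**Figure D3:**
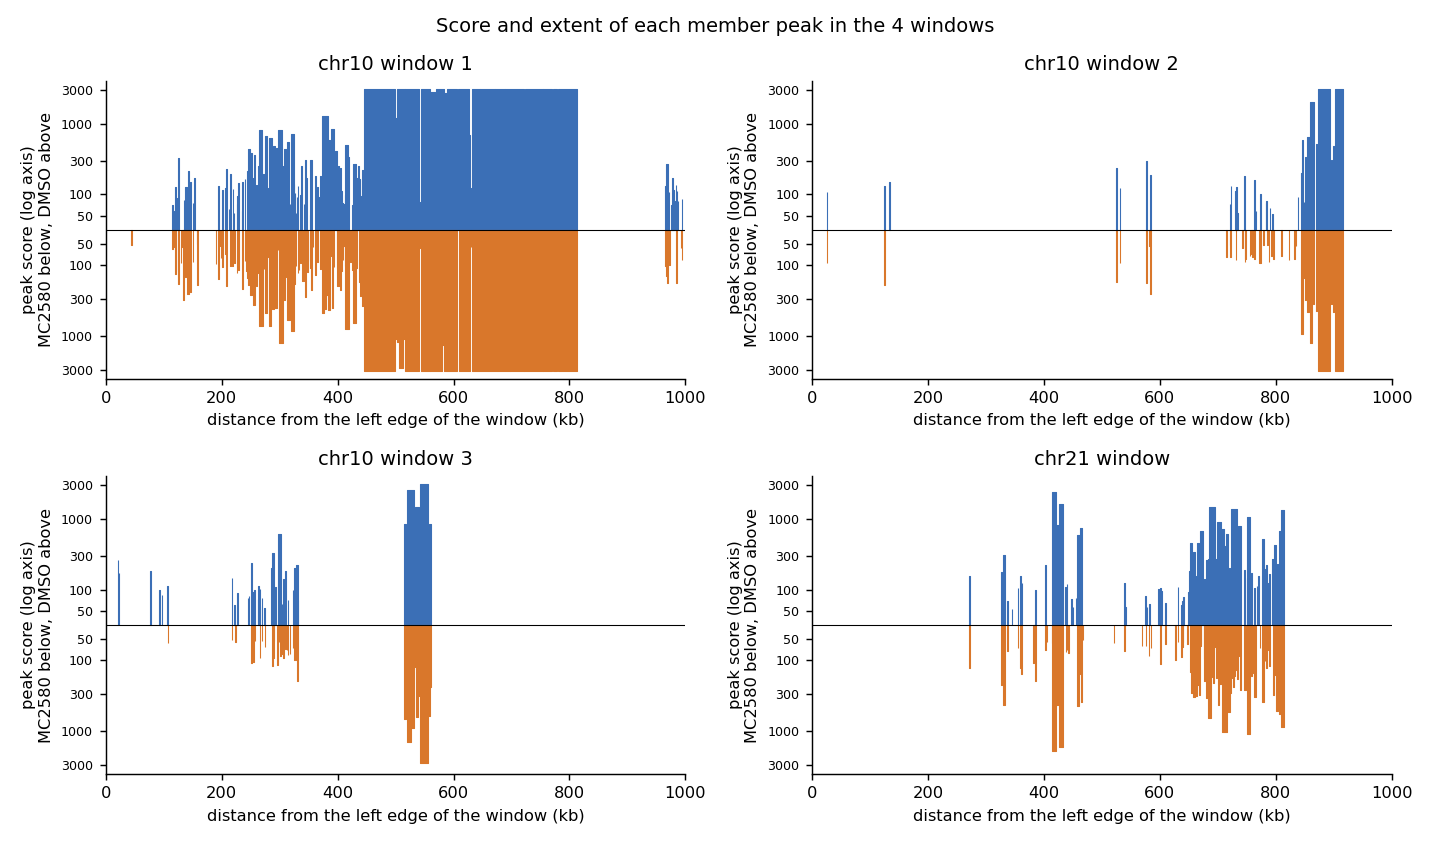
Each member peak of the 4 windows, drawn at its position from the left edge of the window (kb) with its true width; height is the score on a log axis, DMSO above and MC2580 below the line. Windows 1 to 3 are those at 37, 41 and 46 Mb of chromosome 10. Both lists have a nearly unbroken block at 3100 in window 1, and the left end of window 3 has DMSO peaks without MC2580 peaks.

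The 46-Mb window had the lowest ratio of pair scores. Its top peak in DMSO (chr10:46541741-46556617) scored 3100 and covered 99.7% of GPRIN2 (chr10:46541736-46556658), which encodes a G protein-regulated inducer of neurite outgrowth. The MC2580 peak there (chr10:46541804-46556426) scored 2818 and covered 98.0% of the gene. The ends of the DMSO peak differed from those of the gene by 5 and 41 bases. They were not the ends of the occupied stretch, since further DMSO peaks lay close by on either side. The peak before it (chr10:46533628-46541302) scored 1484, and the peak after it (chr10:46557171-46561629) scored 840. Whether the signal follows the gene was not tested. NCOA4, the ferritin autophagy receptor, had 2 DMSO peaks with a highest score of 259 and no MC2580 peak. ANTXRL, an anthrax toxin receptor-like gene, had 11 DMSO peaks with a highest score of 614 and 16 MC2580 peaks with a highest score of 198, and the covered share of the gene was 47.7% and 34.3%. Its pseudogene ANTXRLP1 had 12 DMSO and 6 MC2580 peaks. The other 6 protein-coding genes of the window had no member peak in either list, among them SYT15 and PTPN20. From 46.6 to 47 Mb neither list had a peak.

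The 41-Mb window has no annotated gene, and all 34 DMSO and 43 MC2580 peaks were intergenic. The highest scores lay in its satellite part. The top peak was chr10:41873440-41893667 in DMSO and chr10:41873448-41894295 in MC2580, with a score of 3100 in both, and was named by its width, since a narrower peak near 41.9 Mb also scored 3100 in both lists. In the named peak, tandem GGAAT units (at least 2 in a row, any phase, either strand) made up 54.2% of its bases in both. The GGAAT stretch printed first is the centre of this peak. From 41.7 to 41.8 Mb there were 13 DMSO and 19 MC2580 peaks with scores up to 180 and 93.6. In the 5 bins from 41 to 41.5 Mb, where the sequence had the monomer period of alpha satellite, there were 3 DMSO and 2 MC2580 peaks.

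The chromosome 21 window held 1 protein-coding gene, TPTE, a testis-expressed phosphatase gene, with 9 DMSO and 6 MC2580 peaks and highest scores of 124 and 112. Its strongest peak lay in the lncRNA gene ENSG00000290523, which overlaps BAGE2, a pseudogene of the melanoma antigen family. In DMSO that peak (chr21:10414087-10421193) scored 2359, and in MC2580 its counterpart (chr21:10414686-10421049) scored 1921. It aligned to KMT2C on chromosome 7, which encodes a histone methyltransferase, with 93.3% identity over 77.5% of the DMSO peak. Between genes lay 61.2% of its DMSO peaks and 66.7% of its MC2580 peaks. The 5-base satellite bin from 10.6 to 10.7 Mb alone held 25 and 27 peaks, with highest scores of 1469 in DMSO and 658 in MC2580.

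The peaks next to the window edges were also read. The windows are whole megabases selected on peak number, so that fewer peaks outside them are given by the selection. The megabase before the chromosome 21 window held 22 DMSO and 27 MC2580 peaks, and the one after it held none. The megabase after the 41-Mb window held 16 and 13. In the megabase before 37 Mb neither list had a peak, and the last one before it started at 34996486 in DMSO. The first inside scored 71.9 in DMSO and 51.5 in MC2580, and the first beyond 38 Mb scored 52.2 and 98.0. At 41 Mb the last peaks outside scored 94.2 and 140, and the first inside 107 and 91.8. The last peaks before 42 Mb scored 3100 in both lists, and the next ones after it 205 and 200. At 46 Mb the values outside were 103 and 207 and those inside 259 and 56.9. At 47 Mb the last inside scored 840 and 240, and the first after it 74.9 and 55.1. The chromosome 21 window began with scores of 158 and 127 after 68.3 and 98.7 outside, and ended with 1321 and 865, after which the next peak on the chromosome scored 59.2 in DMSO and 53.3 in MC2580.

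Unlocalized and unplaced sequences with a member peak were 55 of 169 in the assembly, 36 of them unplaced and 19 assigned to a chromosome, and 44 had peaks in both lists. No peak lay on the 261 alternate sequences of the reference used here. The sequences with the most peaks were chr14_GL000225v1_random, with 43 DMSO and 38 MC2580 peaks, and chrUn_KI270442v1, with 40 and 53. On chr14_GL000225v1_random peaks covered 39.0% and 33.7% of the 211 kb, with top scores of 1740 in DMSO and 2119 in MC2580. On chrUn_KI270442v1, top scores were 1244 and 1086, and 22 DMSO and 24 MC2580 peaks had the monomer period of alpha satellite. Next came chr17_GL000205v2_random with 16 peaks in each list. Its top peak began at base 2 in DMSO and base 1 in MC2580, ended at 15592 and 16057, and scored 3100 in both.

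A score of 3100 was reached on 5 sequences, by 5 peaks in each list. Besides chr17_GL000205v2_random, the named ones were chr17_KI270729v1_random, whose top peak at 511-6138 in DMSO was 73.6% identical to itself at a shift of 5 bases, chrUn_KI270744v1, whose top DMSO peak at 107593-113655 aligned to chromosome 4 at 49319806-49325898 with 91.5% identity, and the ribosomal chr22_KI270733v1_random. On chrUn_GL000219v1 the top scores were 588 in DMSO and 1182 in MC2580, and on chrUn_GL000224v1 1298 and 1399. On chr1_KI270709v1_random they were 1296 and 868. On chrUn_GL000216v2 they were 2146 and 1633, at bases 15-1220 and 12-1191.

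Some strong peaks touched an end of their sequence. On sequences of at least 10 kb, 10 of 237 DMSO peaks and 9 of 246 MC2580 peaks lay within 1 kb of an end, with median scores of 531 and 602, whereas the other peaks had medians of 159 and 141. Of the 5 peaks at 3100 in each list, 3 lay there. What lies beyond such an end in NB4 cells was not analysed here. Sequences under 10 kb with a member peak numbered 16, of which 11 had the monomer period, and they held 19 DMSO and 16 MC2580 peaks.

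Peaks on ribosomal DNA were placed by their distance from the 45S rRNA gene. An alignment of the 45S rRNA gene RNA45SN2 of chromosome 21 found a complete copy on chr22_KI270733v1_random (122273-135645, 99.4% identity) and on chrUn_GL000220v1 (105424-118780, 99.3%), each followed by a copy that covered 92.9% of the gene. None of the 7 DMSO peaks on chr22_KI270733v1_random overlapped a copy of the gene, and all lay in the intergenic spacer behind it. The strongest (141081-152599) scored 3100 and reached from 5.44 to 16.9 kb past the end of the gene. In MC2580 the corresponding peak (141145-152447) scored 3100 as well. Of the 9 MC2580 peaks there, 8 lay in the spacer, and 1 with a score of 58.1 lay on the start of the next 45S copy. On chrUn_GL000220v1 each list had 3 peaks, all in the spacer. They started 0.449, 19.1 and 23.6 kb past the gene in DMSO, with scores of 198, 248 and 427, and 0.314, 19.3 and 23.6 kb past it in MC2580, with scores of 129, 271 and 474. A peak directly behind the gene was present on both sequences in both lists.

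**Figure D4:**
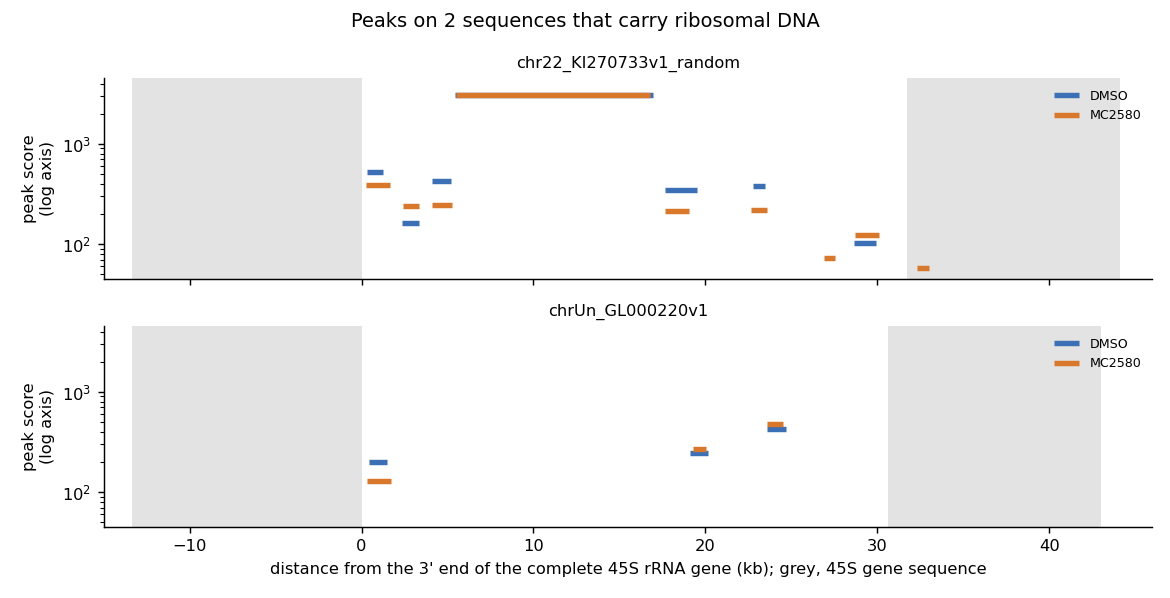
Peaks on the 2 sequences with ribosomal DNA by distance from the 3′ end of the complete 45S rRNA gene (kb) and score (log axis); bars span the peaks of DMSO and MC2580, grey areas are 45S gene sequence. All peaks except 1 of MC2580, with a score of 58.1, lie between the grey areas. Only uniquely matching reads were kept, and how much of the grey areas could carry a peak was not tested.

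Only part of this DNA is unique in the reference. Of the 32-base words in DMSO member peaks, 69.0% occurred once in the genome, and 68.8% in MC2580 member peaks, against 87.9% and 85.9% in the other peaks. The 46-Mb window had 90.2% in its DMSO peaks, but 33.5% over the whole window. In the chromosome 21 window the shares were 63.3% in DMSO peaks and 29.8% over the window, in the 41-Mb window 49.8% and 18.0%, and on the sequences with member peaks 55.1% and 23.3%. In the 37-Mb window they were 82.0% and 76.9%. In every one of these places, the sequences being pooled, the peaks were richer in words found once than the whole place. This held in MC2580 as in DMSO. The part that the restriction to uniquely matching reads had in this difference was not tested. Single sequences could differ, such as chrUn_GL000216v2, with 41.7% in its DMSO peaks and 48.0% over its length. On the ribosomal sequences the shares were low. On chrUn_GL000220v1, 4.04% of the words of DMSO peaks were found once, against 7.19% over the sequence. On chr22_KI270733v1_random the shares were 16.6% and 9.11%. Of all members, 18 in each list had less than 10% of such words.

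Sequences similar to a member peak were common elsewhere. An alignment to another place of the genome covered at least 50% of the peak for 374 of 539 DMSO members (69.4%) and 383 of 563 MC2580 members (68.0%). Non-members were not aligned, so that these shares cannot be called particular to members. On unlocalized and unplaced sequences this held for 210 of 256 DMSO peaks, with a median identity of 93.6%, and chromosome 20 held the best copy for 41 of them. In the 46-Mb window all 23 DMSO peaks with a copy had it on chromosome 10 itself, with a median identity of 88.8%. In the chromosome 21 window 58 of 80 DMSO peaks had one, with a median identity of 95.4%, most often on chromosome 13 (13 peaks).

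The label pericentromeric was checked against the sequence. Identity of each base with the base 1 alpha-satellite monomer or 5 positions further on was used to mark alpha satellite-like and 5-base satellite-like repeats, and 45% was taken as the threshold with the values known. Non-member DMSO peaks had medians of 25.9% and 27.4%. The monomer period was found in 93 DMSO members (17.3%) and 96 MC2580 members (17.1%), against 91 (0.436%) and 99 (0.781%) of the non-members, where chromosome 17 had the most (22 and 23). Most of these members, 69 and 66, lay on unlocalized and unplaced sequences. A further 12 DMSO and 11 MC2580 members had values from 40% to the threshold. A 5-base periodicity was found in 66 (12.2%) and 79 (14.0%) members, against 137 (0.657%) and 150 (1.18%) of the non-members. Neither repeat was found in any member of the 37-Mb and 46-Mb windows, which lay outside the satellite DNA, and for them the label describes position only.

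Scores were also set out by kind of repeat. Members with a 5-base periodicity had a median score of 307 (200 to 457) in DMSO and 235 (177 to 307) in MC2580. Members with the monomer period had medians of 147 (131 to 199) and 160 (117 to 190), and none of them scored 3100. The intervals of these kinds overlapped in MC2580, and neighbouring peaks are not replicates. In DMSO, median widths were 1678 bp with the 5-base periodicity and 1251 bp with the monomer period. Members with neither had medians of 139 and 112, and they included the 15 DMSO and 12 MC2580 peaks of the 37-Mb window that scored 3100. A counterpart in the other list was present for 63 of 66 DMSO and 77 of 79 MC2580 peaks with the 5-base unit, for 76 of 93 and 80 of 96 with the monomer period, and for 301 of 381 and 312 of 389 with neither. One member in each list had both periodicities.

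**Figure D5:**
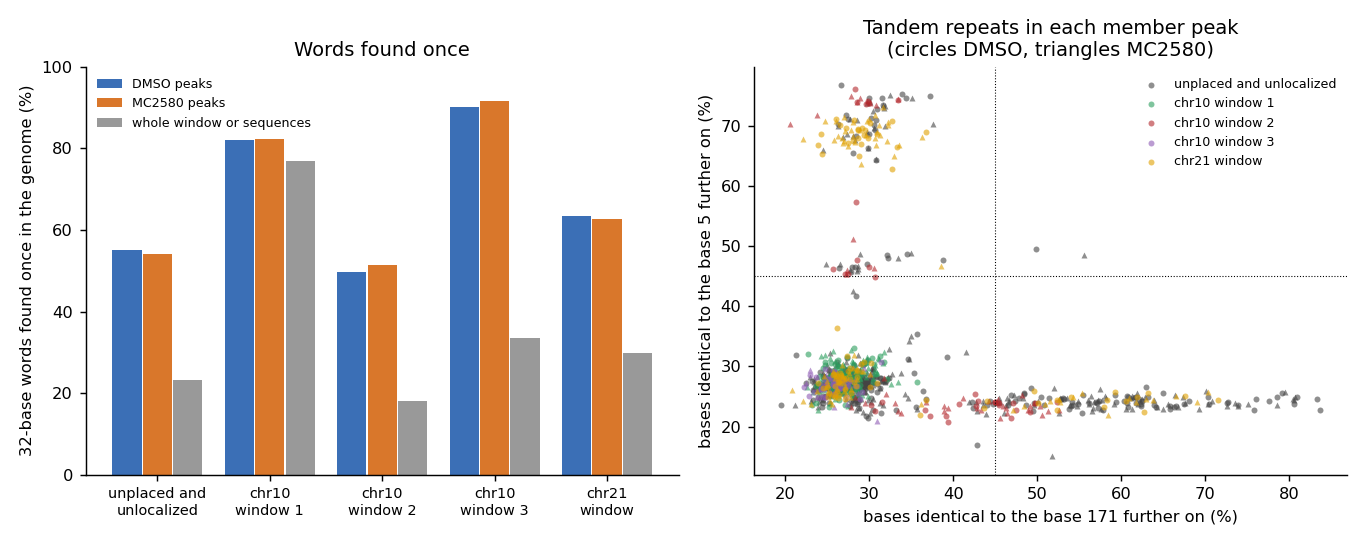
Left, percent of 32-base words that occur once in the genome, in the member peaks of each list and in the whole window or the sequences with members; right, for each member peak, percent of bases identical to the base 1 alpha-satellite monomer (x) and 5 positions (y) further on, with dotted lines at 45%. Windows 1 to 3 are those at 37, 41 and 46 Mb of chromosome 10. Peaks exceed their surroundings on the left (90.2% against 33.5% in window 3), and on the right no point of windows 1 and 3 lies beyond a dotted line.

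The alpha-satellite arrays were counted on their own. On chromosome 10, 20 bins of 100 kb between 39.4 and 41.5 Mb had the monomer period, and they held 11 DMSO and 14 MC2580 peaks, or 5.5 and 7 per Mb. On chromosome 21, 21 such bins between 10.9 and 13 Mb held 1 DMSO peak, with a score of 59.2, and no MC2580 peak. The share of words found once was not computed for these bins. Since only uniquely matching reads were kept, few peaks there cannot be read as little GSE1. The CENP-B box, the binding motif of a centromere protein in alpha satellite (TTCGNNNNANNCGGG, searched on both strands over whole peaks), occurred 1487 times in the 41-Mb window and not at all in the other windows. It was found in 21 of 539 DMSO members (3.90%) and 19 of 563 MC2580 members (3.38%), against 0.455% and 0.774% of the non-members. In the 41-Mb window 7 of 34 DMSO and 6 of 43 MC2580 peaks held it.

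Words of myeloid transcription factors were counted at member centres. The ETS word GAGGAAGT, a form of the PU.1 motif, was searched on both strands in the central 200 bases and was present in 1 of 539 DMSO members (0.186%, Wilson 95% interval 0.0328 to 1.04), against 2.99% (2.76 to 3.23) of the non-members. In MC2580 it was present in 1 of 563 members (0.178%) and 1.99% of the non-members. Both of these members lay in the 46-Mb window. Of all 52352 adjoining 200-base windows of the same DNA, 0.705% held it. The RUNX word TGTGGTTT was present in 7 DMSO members (1.30%, 0.631 to 2.66) against 4.70% of the non-members, in 14 MC2580 members (2.49%, 1.49 to 4.13) against 3.16%, and in 1.62% of the adjoining windows. The base composition of members also differed, with a median GC content of 40.7% in DMSO and 40.5% in MC2580 against 47.1% and 46.3% in the non-members, and its part in the word counts was not tested.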

How the data were processed

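V5-GSE1 ChIP-seq of NB4 cells was analysed from 2 peak lists, each from 1 ChIP library of the 6 libraries in the series. Per the study's methods and the submitters' processing notes, the authors aligned reads to hg38 with Bowtie 4.8.2, kept single matches, and called peaks with MACS at p 1e-05 against the input and the EV ChIP. How both backgrounds were combined is not given in the sources used here. The deposited score is the caller's value, minus 10 times log10 of p, which grows with depth. The lists were assigned to treatments by their names.

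Genes were from GENCODE version 44. Repeat annotation was not used here. Words were counted over 194 reference sequences without alternates, other copies were found with minimap2 2.31, and tables were made with scipy 1.17.1, pysam 0.24.0 and pandas 2.3.3 under Python 3.11.15. Interval, repeat and word functions were tested on simulated data. Members, windows, lists and words were chosen with earlier results of these data known. Named peaks were the strongest of each list per window and per sequence with at least 5 peaks, the widest members, the strongest without a counterpart (added after seeing the data), and protein-coding genes with a member peak. No test was made, since members were selected on the peaks themselves and each treatment had 1 library. Values were recomputed for scores from 100 upwards, without peaks above the 99th percentile of width, for each kind of place alone, and with other overlap rules, merging within 1 kb and 24-base words.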

Additional observations from a re-analysis of the deposited data

How the results depend on the processing

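Of 69 alternative values for 12 results, 44 stayed within 1.5 times the count or within the 95% interval of the value, and the ratio of MC2580 to DMSO peaks, both median scores and the ratio of pair scores did so under every alternative run. With a score of at least 100 the MC2580 members fell to 346, their share with a DMSO counterpart became 88.7%, and median widths became 1790 and 1779 bp in DMSO and MC2580. Merging peaks within 1 kb left 309 and 316 members. Unplaced and unlocalized sequences alone held 256 and 262 members with a median width of 1175 bp in DMSO, and the 4 windows alone held 283 and 301. Counterparts by at least 50% of both peaks were 59.7% and 57.2%, by at least 50% of the shorter peak 79.2% in MC2580, and within 1 kb 89.6% and 89.3%. Without peaks above the 99th percentile of width the MC2580 share was 77.8%. Words found once were 69.8% and 69.6% for scores from 100 upwards, 55.1% and 54.2% on unplaced and unlocalized sequences, 76.1% and 76.2% in the windows, and 55.1% and 54.9% with 24-base words. Leaving out the 37-Mb window and pairs at 3100 were added after seeing the data. The share of repeat-masked bases was not run, since the reference holds capitals alone. No paired analysis was possible because each group had 1 library and no test was made. Depth was unknown, so that fewer or weaker peaks in a list cannot be told apart from shallower sequencing, and members whose words occur more than once could be seen only in part.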
